A study of Homo sapiens with 6 samples.

Results

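The genes described here encode core proteins of the spliceosome and of the particles that coat new transcripts: the SR proteins (symbols starting with SRSF and a digit), the hnRNPs (HNRNP), the SF3A and SF3B subunits, the Sm and other snRNP proteins (SNRP) and the U2AF subunits. They were chosen by symbol alone, among probe sets that name exactly 1 gene, with the probe set of highest mean kept for each gene. This gave 56 genes of the 18417 tested: 12 SR proteins, 20 hnRNPs, 9 SF3A and SF3B subunits, 12 Sm and snRNP proteins and 3 U2AF subunits. Among them, HNRNPA3P1 and SNRPD2P2 are pseudogenes by their symbols. RNA came from A375, an established human melanoma cell line that carries BRAF V600E, an allele that keeps the ERK kinase pathway switched on. One group of 3 arrays held cells given vehicle (0.1% DMSO) for 24 h, and the other group of 3 held cells given 10 µM vemurafenib, an inhibitor of that mutant kinase, for 24 h. The 3 replicates of a group came from different cell stocks handled on different days, and all results concern this one line, dose and time. The values are log2 levels per probe set on single-colour Affymetrix arrays, so a difference of 1 is a 2-fold difference of array signal. They carry no read depth, and precision is limited by there being 3 arrays a group.

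Splicing removes introns from a new transcript in steps that separate particles carry out. The U1 and U2 snRNPs mark the start and the end region of an intron, each snRNP is built on a ring of Sm proteins, SF3A and SF3B belong to U2 and help it hold the branch point, and U2AF reads the end of the intron first. SR proteins mostly bind exons and help splice sites to be used, hnRNPs coat the transcript and often oppose the use of a site, and the balance of both affects which exons are kept. Proliferating cells make these proteins in large amounts, and many of them also act in RNA export, stability or translation.

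The arrays were alike in scale, with medians over all probe sets between 7.69 and 7.73. Medians over the genes tested ran from 8.31 to 8.35 in vehicle and from 8.37 to 8.40 with vemurafenib. DUSP6, SPRY2, ETV4 and CCND1, genes that the ERK pathway switches on, changed by -4.21, -3.80, -3.84 and -2.49 with vemurafenib, each with its groups far apart. Of 8 measured markers of melanoma and pigment cells, 4 (MITF, SOX10, S100A1 and S100B) lay above 7.28, the 95th percentile of 341 olfactory receptor genes, which serve as a mark of background. PMEL, MLANA, TYR and TYRP1 lay below it. The mean level of this list ran from 7.82 to 7.86 in vehicle and from 8.16 to 8.31 with vemurafenib, and the 4 markers above the mark all rose, by 0.30 to 0.91. Markers of other cells were above that mark for 2 of 5 keratinocyte genes, 3 of 6 fibroblast genes, 1 of 5 endothelial genes and 1 of 4 leukocyte genes. The mean level of the fibroblast list ran from 7.44 to 7.58 in vehicle and from 7.98 to 8.18 with vemurafenib. In that list LUM and PDGFRB, both above the mark, rose by 1.13 and 1.08. DCN rose by 1.46 but lay below the mark in both groups (means 5.46 and 6.92). COL1A1, also above the mark, did not pass (0.01), and neither did COL1A2 and COL3A1 (-0.15 and -0.04). The mean level of the leukocyte list ran from 6.997 to 7.03 in vehicle and from 6.72 to 6.75 with vemurafenib. For the endothelial list these ranges were 6.64 to 6.80 and 6.45 to 6.59. For the keratinocyte list they were 7.04 to 7.17 and 6.98 to 7.21. Their part in the results below was not tested. In bulk RNA, fewer cells of a type and less RNA per cell cannot be told apart.

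Most of the splicing genes were lower with vemurafenib, by moderate amounts. Of the 56 members 37 fell and 2 rose at a limma adjusted p under 0.05 (Benjamini-Hochberg over all 18417 genes), while 22.2% of all genes tested fell and 23.2% rose (45.5% in either direction). With each array centred on its median over the genes tested, 41 members fell and 2 rose, and over all genes the split moved from 4090 lower and 4281 higher to 5630 and 3682. The median change over the members was -0.35 on the log2 scale, against -0.05 over all genes. Falls of at least 1.5-fold were seen for 7 members, or 12.5% of them, and for 7.03% of all genes. All 7 lay among the 50 members in the brighter 50% of genes, where 11.4% of genes had such falls. The share of such falls among these 50 members was thus a little above that of bright genes, a difference that was not tested. Rises of that size were seen for 0 members, for 8.71% of all genes and for 10.4% of the brighter 50%. The largest change was the 1.98-fold fall of SNRPD1. All 3 vemurafenib arrays lay below all 3 vehicle arrays for 39 members and above them for 3, which over all genes held for 28.5% and 26.9% (55.4% in either direction).

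The members are mostly bright on these arrays, and bright genes passed the test more often. In the brighter 50% of genes 29.5% fell and 29.7% rose, with a median change near 0 (-0.0046). Of the 50 members among these brighter genes 36 fell and 2 rose, with a median of -0.38. At the other end, SRSF12, HNRNPCL1, HNRNPCL2 and SNRPD2P2 lay in the dimmest 25% of genes (mean levels up to 6.87). None of these 4 passed the test, and all lay below the olfactory receptor mark of 7.28.

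**Figure D1:**
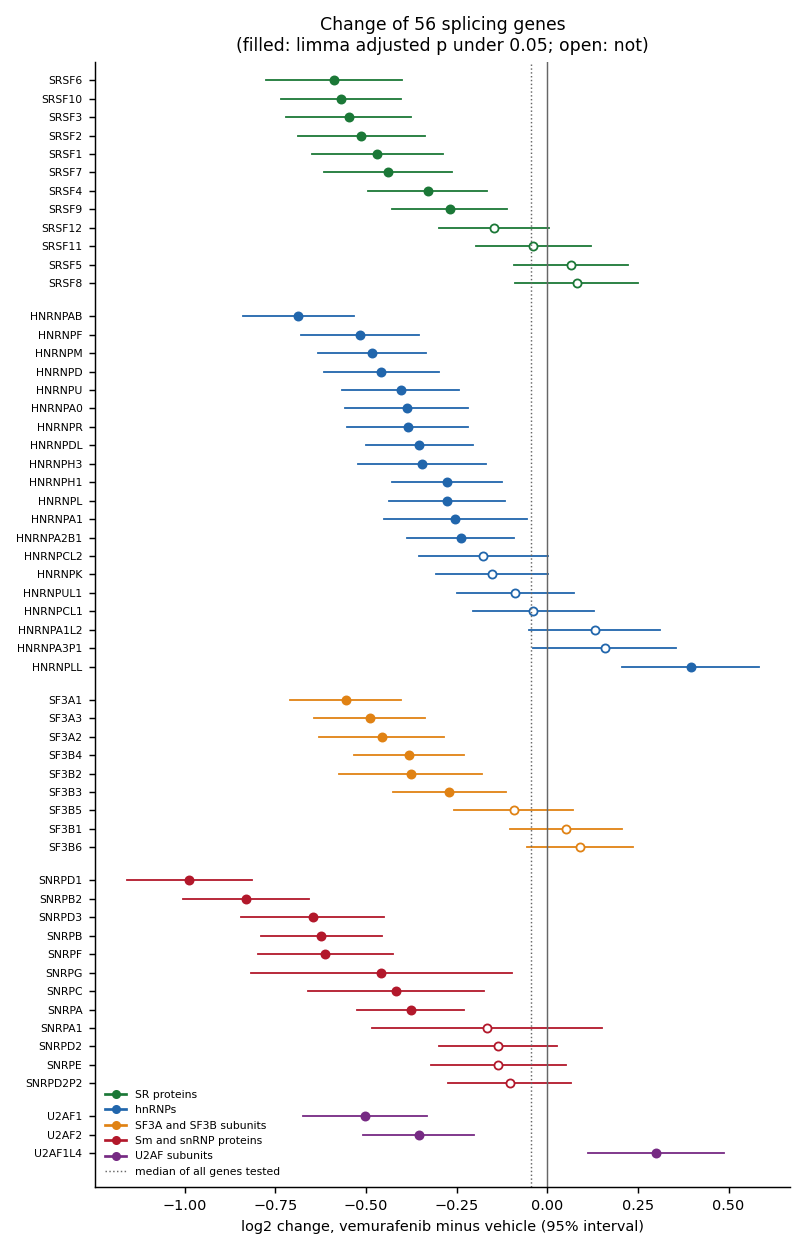
Log2 change (vemurafenib minus vehicle, horizontal axis) of each of the 56 members, grouped by family, with the 95% interval from limma as a line. Filled points passed an adjusted p of 0.05 and open points did not, and most points lie left of the dotted median of all genes (-0.05), with HNRNPLL and U2AF1L4 as the filled points on the right.

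**Figure D2:**
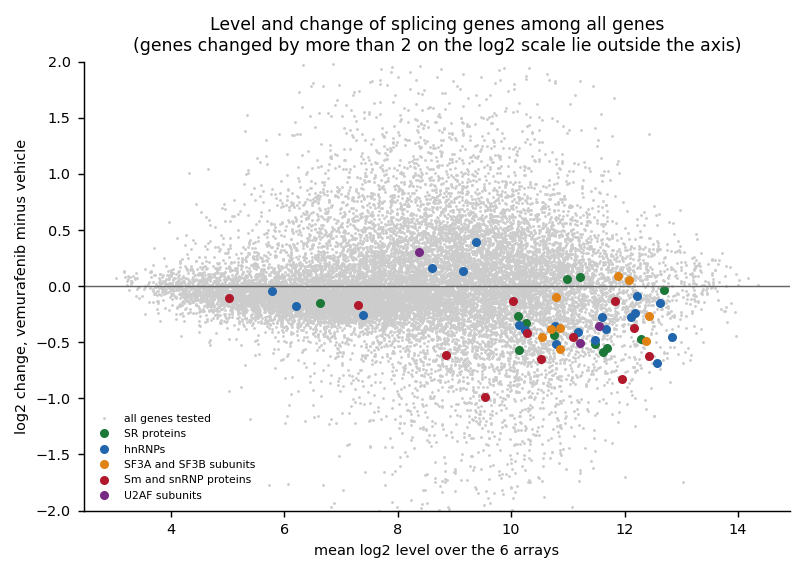
Mean log2 level over the 6 arrays (horizontal axis) and log2 change with vemurafenib (vertical axis, cut at 2 on either side) for all 18417 genes in grey and the members in colour. The members gather at bright levels (median 10.9, against 8.37 for all genes), most of them below the line of no change.

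Upstream DNA is shown for 5 members that have a single promoter entry: SNRPB2, HNRNPAB and SRSF6, which had the largest such fall in their families, and HNRNPLL and U2AF1L4, the 2 members that rose. Each sequence is the 250 bases before the annotated start, from RefSeq on GRCh38.p14, printed 5′ to 3′ along the gene. In this build they lie at chr20:16729776-16730025 (plus strand), chr5:178204283-178204532 (plus), chr20:43457646-43457895 (plus), chr2:38602929-38603178 (minus) and chr19:35745419-35745668 (minus). Capitals mark 3 motifs on either strand: the E-box CACGTG, the ETS motif CCGGAAG (or CTTCCGG) and CCAAT (or ATTGG). No capitals overlap in these sequences.
SNRPB2: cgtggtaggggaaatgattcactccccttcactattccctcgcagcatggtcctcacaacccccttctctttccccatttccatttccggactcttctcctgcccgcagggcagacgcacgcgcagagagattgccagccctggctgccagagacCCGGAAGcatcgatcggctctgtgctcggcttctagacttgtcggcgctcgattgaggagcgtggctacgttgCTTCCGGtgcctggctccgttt
HNRNPAB: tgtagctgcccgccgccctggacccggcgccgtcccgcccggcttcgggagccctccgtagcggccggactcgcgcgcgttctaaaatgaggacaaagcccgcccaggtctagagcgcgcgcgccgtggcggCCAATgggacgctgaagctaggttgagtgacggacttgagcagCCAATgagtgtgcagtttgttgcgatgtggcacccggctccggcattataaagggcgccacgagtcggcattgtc
SRSF6: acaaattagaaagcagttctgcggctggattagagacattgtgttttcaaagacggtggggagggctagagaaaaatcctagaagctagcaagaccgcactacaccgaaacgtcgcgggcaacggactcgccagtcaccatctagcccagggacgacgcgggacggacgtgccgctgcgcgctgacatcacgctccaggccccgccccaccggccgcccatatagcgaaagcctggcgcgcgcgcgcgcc
HNRNPLL: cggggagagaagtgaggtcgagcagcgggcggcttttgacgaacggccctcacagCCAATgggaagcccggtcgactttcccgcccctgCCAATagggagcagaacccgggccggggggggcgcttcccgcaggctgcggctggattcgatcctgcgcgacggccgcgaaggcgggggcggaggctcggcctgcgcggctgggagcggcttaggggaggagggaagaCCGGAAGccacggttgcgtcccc
U2AF1L4: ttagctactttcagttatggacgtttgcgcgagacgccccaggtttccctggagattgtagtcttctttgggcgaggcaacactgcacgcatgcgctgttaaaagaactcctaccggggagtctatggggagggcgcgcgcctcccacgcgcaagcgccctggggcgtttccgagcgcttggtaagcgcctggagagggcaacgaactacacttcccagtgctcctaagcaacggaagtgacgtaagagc

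SNRPB2, which fell, and HNRNPLL, which rose, both hold the ETS motif, while HNRNPAB and HNRNPLL hold CCAAT and neither SRSF6 nor U2AF1L4 holds any of the 3. In all, 50 members had a promoter entry. HNRNPA1, HNRNPA3P1, SF3B3, SNRPD1, SNRPD2P2 and SRSF2 are the others. Among the 36 members with exactly 1 entry, 16 (44.4%) held the ETS motif, compared with 13.03% of 10501 tested genes with 1 entry, 19.9% of those in the brighter 50% and 8.52% of all promoter entries. The share was 44.0% among the 25 of them that fell and 44.4% among the 9 that did not pass. For CCAAT it was 36.1% of the members and 35.4% of the tested genes, and for the E-box 5.56% and 7.85%. A match is a run of letters in this window and was not tested as a binding site.

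The Sm and snRNP proteins held 5 of the 7 members with a fall of at least 1.5-fold. Of these 12 genes 8 fell and 0 rose, with a median change of -0.44, and the mean level over the 12 ran from 10.28 to 10.37 in the vehicle arrays and from 9.82 to 9.91 in the vemurafenib arrays. Within the group, 5 of the 7 Sm ring proteins fell (median -0.61), and so did 3 of 4 proteins particular to U1 or U2 (median -0.40).

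SNRPD1 encodes SmD1, a ring subunit that methylation marks before assembly. Its probe set (8020411) read 10.11, 9.95 and 10.03 in vehicle and 9.02, 9.15 and 8.97 with vemurafenib, groups about 1 unit apart with a narrow spread inside each. The means were 10.03 ± 0.08 and 9.04 ± 0.10 (SD, n = 3), a change of -0.99 (SE 0.08, limma adjusted p 1.44e-06). SNRPD3, the gene of SmD3, read 10.82, 10.72 and 11.01 against 10.30, 10.12 and 10.20, which was 1.57-fold lower (limma adjusted p 0.000113). SNRPB, the gene of SmB, read 12.76, 12.72 and 12.76 against 12.17, 12.00 and 12.19 and was 1.54-fold lower (limma adjusted p 4.11e-05). Both were therefore lower in every vemurafenib array than in any vehicle array.

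SNRPF, another ring subunit, read 9.25, 9.03 and 9.17 in vehicle and 8.61, 8.41 and 8.59 with the drug, with no overlap and a change of -0.61 (SE 0.08, limma adjusted p 0.000114). SNRPG was less clear: its vehicle arrays read 11.29, 11.77 and 10.92, a spread wider than for any other member, and its vemurafenib arrays 10.81, 10.93 and 10.86, so the groups touched. Its change of -0.46 (SE 0.16, limma adjusted p 0.0395) missed the threshold in 9 of 18 alternatives (0.00145 to 0.148 over all of them). These 9 included the omission of any single array other than vehicle replicate 3, with an adjusted p of 0.113 and a change of -0.24 without vehicle replicate 2. A second, dimmer SNRPG probe set changed by -0.35 (limma adjusted p 0.0283 when every probe set was tested).

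The remaining ring genes did not pass. SNRPD2 changed by -0.14 (95% interval -0.30 to 0.03) although its arrays did not overlap. SNRPE changed by -0.13 (-0.32 to 0.05) on its brighter probe set and by -0.29 on a dimmer one, which passed when every probe set was tested (limma adjusted p 0.0481). That dimmer set read 6.99 in vehicle and 6.70 with vemurafenib on average, below the olfactory receptor mark of 7.28. The brighter set itself passed in 3 of 18 alternatives (0.0219 to 0.5849 over all of them). For the members with several probe sets (SNRPE, SNRPG and SRSF10), which set follows the gene itself was not tested.

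SNRPB2 encodes U2B″, a protein of the U2 particle. It read 12.50, 12.26 and 12.34 in vehicle and 11.54, 11.49 and 11.57 with vemurafenib, all drug arrays well below all vehicle arrays. That was 1.78-fold lower (log2 change -0.83, SE 0.08, limma adjusted p 5.72e-06), the second largest fall of the 56. SNRPA and SNRPC, whose proteins sit on U1, changed by -0.38 and -0.42. SNRPA1, the partner of U2B″ on U2, was dim and scattered (6.86 to 7.53 with vemurafenib, 7.22 to 7.51 in vehicle) and changed by -0.17 with an interval of -0.48 to 0.15.

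Among the SF3A and SF3B genes, all 3 SF3A subunits and 3 of the 6 SF3B subunits chosen by symbol fell and 0 rose. The median over the 9 was -0.38. PHF5A, a further SF3B subunit whose symbol lies outside the rule, changed by -0.81 and is counted in a later list. SF3A1, a scaffold of the SF3A part of U2, read 11.15, 11.10 and 11.16 against 10.63, 10.52 and 10.59. The groups were 1.47-fold apart and did not overlap (limma adjusted p 5.19e-05). SF3A3 and SF3A2 changed by -0.49 and -0.46, SF3B4 and SF3B2 by -0.38 each, and SF3B3, a large scaffold subunit, by -0.27.

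SF3B1, the large subunit that clasps the branch point and is recurrently mutated in blood cancers and uveal melanoma, did not pass. Its levels were 12.02, 12.01 and 12.11 in vehicle and 12.07, 12.14 and 12.08 with vemurafenib, groups that overlapped, with a change of 0.05 and a 95% interval of -0.10 to 0.21. That interval lies above the intervals of all 3 SF3A subunits (which span -0.71 to -0.28), though a difference between genes was not tested. SF3B6, which touches the branch point adenosine, read 11.88, 11.81 and 11.84 against 11.93, 11.93 and 11.94, higher in every drug array by little (change 0.09, interval -0.06 to 0.24, limma adjusted p 0.296). SF3B5, a small structural subunit, changed by -0.09 (-0.26 to 0.07).

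U2AF2, which binds the pyrimidine-rich stretch near the intron's end, read 11.75, 11.69 and 11.72 in vehicle and 11.41, 11.39 and 11.30 with vemurafenib (1.28-fold lower, limma adjusted p 0.00135). U2AF1, its partner that reads the last bases of the intron, read 11.52, 11.40 and 11.49 against 10.93, 10.89 and 11.08 and was 1.42-fold lower (limma adjusted p 0.000254). Neither gene's groups overlapped. U2AF1L4, a relative of U2AF1, went the other way: it read 8.36, 8.14 and 8.16 in vehicle and 8.56, 8.41 and 8.60 with the drug, a rise of 0.30 (SE 0.09, limma adjusted p 0.0133). Its lowest drug array and highest vehicle array were close, and the call was lost without vehicle replicate 3 (limma adjusted p 0.0508) and without the farthest array of each group (0.0822), in a range over 18 alternatives of 0.00559 to 0.0822.

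Of the 12 SR protein genes 8 fell and 0 rose, with a median of -0.38. The fallers were SRSF6, SRSF10, SRSF3, SRSF2, SRSF1, SRSF7, SRSF4 and SRSF9, from -0.59 to -0.27. The mean over the family ran from 10.92 to 11.01 in the vehicle arrays and from 10.62 to 10.70 in the vemurafenib arrays.

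SRSF6, an exon-binding splicing activator, read 11.95, 11.83 and 11.98 against 11.39, 11.42 and 11.18, which was 1.504-fold lower (limma adjusted p 0.000153). SRSF3, the smallest classical SR protein, also an adaptor for mRNA export, read 11.95, 11.85 and 12.07 against 11.43, 11.45 and 11.35 (1.46-fold lower, limma adjusted p 0.00014). For both genes the lowest vehicle array stood clear of the highest drug array.

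SRSF1, a founding member of the family that can act as an oncogene, read 12.60, 12.37 and 12.62 in vehicle and 12.05, 12.10 and 12.03 with vemurafenib. The fall of 0.47 on the log2 scale (SE 0.08, limma adjusted p 0.000642) held in every array although vehicle replicate 2 was lower than the other vehicle arrays. SRSF2, which binds exonic enhancers and is recurrently mutated in myeloid disease, read 11.70, 11.72 and 11.79 against 11.33, 11.25 and 11.10 (change -0.51, SE 0.08, limma adjusted p 0.00026). SRSF10, which represses splicing when it loses its phosphates, changed by -0.57 and by -0.63 on its 2 probe sets. The call of SRSF9 (-0.27, limma adjusted p 0.00985) was lost without vehicle replicate 1 (0.0545, the highest of the range from 0.00168).

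SRSF5, SRSF8, SRSF11 and SRSF12 did not pass. SRSF11, among the brightest members with a mean of 12.7, changed by -0.04 (95% interval -0.20 to 0.12), SRSF5 by 0.07 (-0.09 to 0.22) and SRSF8, an intronless relative of SRSF2, by 0.08 (-0.09 to 0.25). These intervals leave room for small changes, and for these 3 genes the groups overlapped.

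**Figure D3:**
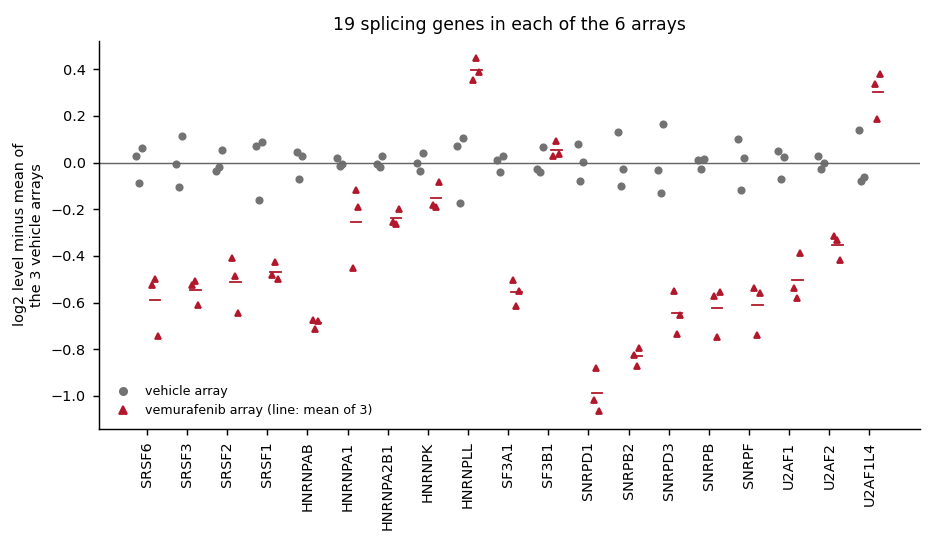
Log2 level minus the mean of the 3 vehicle arrays (vertical axis) for 19 members in each array, with vehicle arrays as grey circles, vemurafenib arrays as red triangles and a red line at the vemurafenib mean. SNRPD1 and SNRPB2 lie lowest (-0.99 and -0.83), SF3B1 overlaps between groups, and HNRNPLL and U2AF1L4 lie above 0.

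Of the 20 hnRNP genes 13 fell and 1 rose, with a smaller median change of -0.28. The 13 include HNRNPA1, whose direction is uncertain, as described below. The mean over the family ran from 10.53 to 10.61 in vehicle and from 10.31 to 10.34 with vemurafenib. HNRNPAB, a binder of RNA and single-stranded DNA, read 12.96, 12.85 and 12.94 against 12.25, 12.21 and 12.24, the largest fall of the family at 1.61-fold (change -0.69, SE 0.07, limma adjusted p 9.74e-06). HNRNPF, which binds runs of G, changed by -0.52, HNRNPM by -0.48, HNRNPD, which binds AU-rich elements of unstable mRNAs, by -0.46 and HNRNPU, a nuclear scaffold protein, by -0.40. HNRNPA0, HNRNPR, HNRNPDL, HNRNPH3, HNRNPH1 and HNRNPL changed by -0.39 to -0.28.

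HNRNPA2B1, an abundant hnRNP core protein, read 12.30, 12.28 and 12.33 against 12.05, 12.04 and 12.11. This is a small fall (1.18-fold, limma adjusted p 0.013) between tight groups, and its call was lost without vehicle replicate 3 (0.0509, in a range over 18 alternatives of 0.000558 to 0.0509). HNRNPA1, its close relative, was represented by a dim probe set (7955890) that read 7.54, 7.50 and 7.51 in vehicle and 7.06, 7.40 and 7.33 with the drug. Vemurafenib replicate 1 was the lowest of the 6. The change was -0.25 (limma adjusted p 0.0381), and without that array it was -0.15 (0.175). The call was also lost without each vehicle replicate (0.0683 to 0.0973), with the replicate block (0.0583) and without the farthest array of each group (0.0568), within a range of 0.00304 to 0.175. Of the probe sets that carry the symbol HNRNPA1 beside those of copies, 4 were far brighter (vehicle means 13.2) and changed by 0.10 to 0.13. They name no single gene, so the direction for HNRNPA1 is uncertain.

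HNRNPK, a binder of C-rich RNA, read 12.70, 12.67 and 12.74 against 12.52, 12.52 and 12.62. All drug arrays were lower, but the change of -0.15 (95% interval -0.31 to 0.0025) did not pass (limma adjusted p 0.1), while it passed in 4 of 18 alternatives (0.0148 to 0.248). HNRNPUL1 changed by -0.09 (-0.25 to 0.07). HNRNPA1L2 and HNRNPA3P1, close copies of other hnRNP genes, changed by 0.13 and 0.16 and did not pass. Signal shared with their parent genes cannot be separated on these probe sets. Far brighter sets that name HNRNPA3 together with HNRNPA3P1 (vehicle means 12.02, 11.40 and 11.88) changed by 0.02, -0.01 and 0.04. They did not pass when all probe sets were tested together, and HNRNPA3 is not among the members.

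HNRNPLL, a relative of HNRNPL that switches exons of the CD45 transcript in T cells, was the hnRNP that rose. It read 9.25, 9.01 and 9.29 in vehicle and 9.54, 9.63 and 9.57 with vemurafenib, with no overlap (1.32-fold higher, change 0.40, SE 0.09, limma adjusted p 0.00269). HNRNPL itself fell 1.21-fold (limma adjusted p 0.00899). A difference between the changes of these relatives was not tested.

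The rest of the splicing machinery was followed in 5 further lists, whose shares stand beside 22.2% lower and 23.2% higher over all genes, and 29.5% and 29.7% over the brighter 50%. In the list of LSm proteins and snRNP assembly factors 21 of 29 measured genes (72.4%) fell and 1 rose, with a median of -0.35. The count that fell ran from 16 to 22 when single arrays were left out. The largest falls were those of GEMIN5, GEMIN4 and DDX20, parts of the SMN complex that loads Sm proteins on RNA (-0.98, -0.95 and -0.93), and of WDR77 (-0.86), the partner of the methyltransferase PRMT5, whose targets include SmD1, SmD3 and SmB. PRMT5 changed by -0.63 (SE 0.07, limma adjusted p 3.13e-05). Against the list, GEMIN8, another part of the SMN complex, rose by 0.39 (limma adjusted p 0.00275).

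Of 31 tri-snRNP and other snRNP proteins outside the rule, 15 (48.4%) fell and 1 rose, with a median of -0.17. PRPF4, a tri-snRNP protein, fell 2.04-fold (log2 change -1.03), and PPIH and SNRNP40 changed by -0.63 and -0.60. RNPC3, which belongs to the minor spliceosome that removes a rare class of introns, rose 1.88-fold, from 9.98 ± 0.11 to 10.89 ± 0.17 (SD, n = 3; limma adjusted p 1.25e-05). Among the other minor spliceosome proteins of this list, SNRNP48 changed by -0.57 (limma adjusted p 0.00144). SNRNP25, SNRNP35, ZRSR2, ZMAT5, PDCD7 and ZCRB1 did not pass (changes from -0.11 to 0.21). The large U5 proteins PRPF8 and SNRNP200 changed by -0.13 and -0.04 and did not pass.

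Of 39 genes of the PRP19 complex, the exon junction complex and the step factors, 21 (53.8%) fell and 1 rose, with a median of -0.22 and with 14 falling when vehicle replicate 1 was left out. MAGOHB of the exon junction complex, the helicase DHX15, the SF3B subunit PHF5A and the ubiquitin ligase PRPF19 changed by -0.96, -0.90, -0.81 and -0.73. SYF2 rose by 0.64.

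Of 10 genes for kinases of SR proteins and for import factors of SR proteins or hnRNPs, 2 fell, a share near that of all genes (22.2%). In the same list 4 rose (23.2% of all genes). The median was 0.03 and became -0.03 when arrays were centred on the genes tested. SRPK1, the main cytoplasmic SR protein kinase, went from 11.55 ± 0.09 to 10.75 ± 0.04 (SD, n = 3), 1.73-fold lower (limma adjusted p 4.66e-06). Its relative SRPK2 rose by 0.34 and the nuclear kinases CLK4, CLK1 and CLK3 by 0.51, 0.35 and 0.27. TNPO1, which imports several hnRNPs, changed by -0.38. TNPO3, which imports SR proteins, changed by -0.13 and did not pass.

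Of 63 other RNA-binding regulators of splicing 25 (39.7%) fell and 9 (14.3%) rose, with a median of -0.15. PTBP1, which represses many tissue-specific exons, fell 1.61-fold (limma adjusted p 1.6e-05). CIRBP, the cold-inducible RNA-binding protein, and QKI, a regulator of exon use and circular RNA, rose 1.90-fold each (change 0.93 and 0.92), and CELF2 rose by 0.77 from a vehicle level of 6.41, with a mean level in the dimmest 25%.

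**Figure D4:**
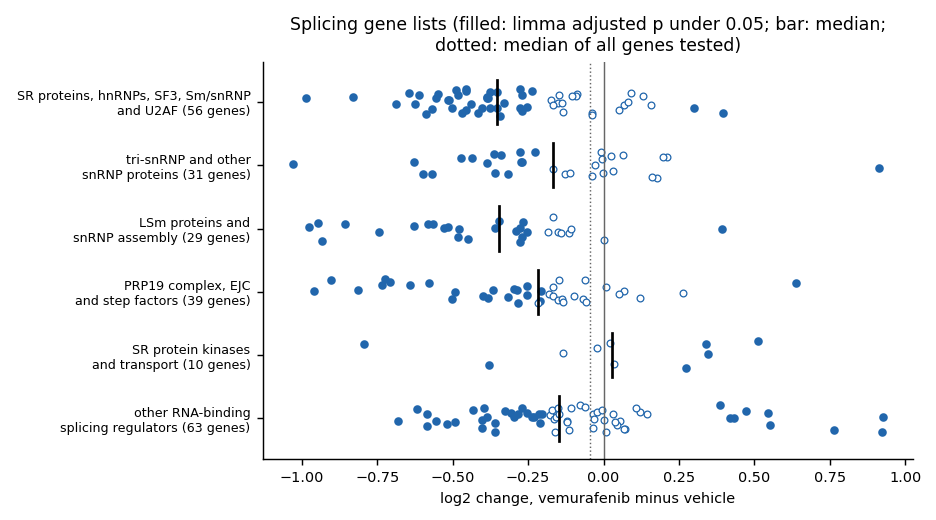
Log2 change with vemurafenib (horizontal axis) of each gene in the 56 members and in 5 further splicing lists, 1 point per gene (vertical scatter within a row has no meaning), with filled points past an adjusted p of 0.05 and a bar at each list's median. The medians are -0.35 for the members, -0.35 for LSm proteins and assembly factors and 0.03 for the SR protein kinases and transport.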

How the data were processed

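RNA of A375 cells was measured on 6 arrays, grouped by sample title. The authors deposited log2 levels per probe set. RMA and Partek are the tools named, per the submitters' processing notes, with no version. RMA usually forces the arrays to 1 distribution, so a change in a cell's total RNA would not show, and probe set levels do not resolve splice forms. For summarization level, batch handling and genome build, the answer is not given in the sources used here. Of 33297 probe sets, a platform annotation of 2016 gave 19460 a single symbol. The set with the highest mean was kept for each of 18417 genes, with no filter on dim sets.

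Genes were tested with limma 3.58.1 in R 4.3.3 (lmFit, then eBayes) on a model holding just the group. P-values are 2-sided, adjusted by Benjamini-Hochberg across the 18417 genes, and called under 0.05. The fit was also run on simulated data with independent noise and few changed genes, which does not cover paired dishes or shared batches. Other fits used a fixed or random replicate block (with statmod 1.5.0), centring on array medians, quantile normalization, stricter limits on dim genes (25% or 50% left out), set means, every set, a robust trended eBayes, array weights, or left out each array in turn. After the data were seen, 3 more were added: all probe sets together, centring on the genes tested, and leaving out the array farthest from its mean in both groups.

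Values in every array are given for members past the threshold with at least a 1.5-fold change, for the largest fall and rise in each family, and for SRSF1, SRSF2, SRSF3, HNRNPA1, HNRNPA2B1, HNRNPK, SF3B1, SNRPB, SNRPN (which had no set of its own), U2AF1 and U2AF2. From each further list the 4 largest changes past the threshold and the largest against its direction are named. Chosen after their values were seen were SNRPG, SNRPA1, SF3B6, PRMT5, PRPF8, SNRNP200, SRPK2, CLK3, TNPO3 and the minor spliceosome genes other than RNPC3. Members, lists and motifs were chosen with earlier results of these data known. Plots came from matplotlib 3.10.9 under Python 3.11.15, with tables read by pandas 2.3.3 and numpy 2.4.6.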

Additional observations from a re-analysis of the deposited data

How the results depend on the processing

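Over the 18 alternatives, 33 of the 37 members that fell passed the threshold in every one in which they were tested, the exceptions being SRSF9, HNRNPA1, HNRNPA2B1 and SNRPG. The count of members that fell ran from 34 to 41 and their median change from -0.42 to -0.31. Of the 2 members that rose, U2AF1L4 was lost without vehicle replicate 3, so that omission of single arrays gave 1 to 2 rises, and without the farthest array of each group, which gave 1. Among the 17 members that did not pass, SRSF12, HNRNPCL2, HNRNPK, SNRPD2 and SNRPE passed in at least 1 alternative. The hnRNP median was -0.34 without the dimmest 50% of genes, which removes the dim members. The median of the SF3A and SF3B subunits ran from -0.39 to -0.30 over omissions of single arrays. Centring each array on the median of the genes tested lowered every change by the same amount. It gave -0.44 for SF3A and SF3B and -0.21 for the other RNA-binding regulators, moved the median of all genes to -0.11, and turned the split of all genes from 4281 higher and 4090 lower to 3682 higher and 5630 lower. The design pairs dishes of the same stock and day, but of the 6 arrays 1 carries a batch letter, so the pairs are not known here. The main test therefore holds no pairing. For same-numbered arrays, deviations from the group means over all genes had correlations of 0.14, -0.18 and -0.25. Such deviations cancel out within a group, so these correlations depend on each other and cannot settle the pairs. Across numbers, vehicle replicate 2 with vemurafenib replicate 3 gave 0.28 and vehicle replicate 3 with vemurafenib replicate 2 gave 0.22, and no fit was made with pairs chosen from these values. With the replicate block 36 members fell and 2 rose, and HNRNPA1 was the member whose call was lost. Under the random block SNRPG was.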

Other observations

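A further 20 probe sets carried a symbol of these families together with other symbols and were left out of the comparison. When all 33297 probe sets were tested together with limma, 9948 of them passed an adjusted p under 0.05, in either direction. Of the 20 sets, 6 were higher and 1 was lower in that fit, with a median change of 0.09 and a range of -0.23 to 0.66. Not all are separate measurements: 2 of the SNORD116 sets hold the same values in every array, and so do 3 of the SNORD115 sets. Of the 7 sets that also carried snoRNA symbols 3 were higher, by up to 0.56. Among the other 13 sets 3 were higher. The set of HNRNPH2 and its readthrough with RPL36A changed by 0.39 (limma adjusted p 0.00675), from 10.06 in vehicle to 10.45. The set of SNRPN, which encodes a tissue-restricted relative of SmB, and SNURF, encoded by the same transcript, changed by 0.32 (limma adjusted p 0.0116), from 9.72 to 10.04. The third carries BSCL2, not a splicing gene, and its readthrough with HNRNPUL2, and changed by 0.66. The set that carries HNRNPUL2 itself beside that readthrough changed by -0.225 and did not pass (limma adjusted p 0.0577). The 1 lower set carries HNRNPC beside its copies HNRNPCL1, HNRNPCL2 and HNRNPCL3 and changed by -0.20 (limma adjusted p 0.047). Another set, of HNRNPC and HNRNPCL1, changed by -0.199 and did not pass (limma adjusted p 0.0543).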
